A study of Homo sapiens with 5 samples.

Results

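The genes described here encode the machinery that forms the 3′ ends of RNA polymerase II transcripts, apart from the CFIm complex itself. They were chosen by gene symbol, from a list of cleavage and polyadenylation factors, poly(A) polymerases, poly(A)-binding proteins, termination factors, histone 3′ end factors and Integrator subunits. All 38 listed symbols were found among the 33857 genes of the deposited table. The members fell into 9 groups by their role.

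Poly(A+) RNA was sequenced from H9 human embryonic stem cells, an established line grown in mTeSR medium, to compare CFIm25 gene-edited cells with mock control cells. There were 2 mock control samples and 3 CFIm25-m samples, each of the latter from a different single-cell clone made with guide RNAs against NUDT21, the gene of CFIm25. By the study's account the mock controls were also clones, which had received the empty CRISPR plasmid, although the labels call them only controls. The word clone is used here for the CFIm25-m samples. Edited cultures went through puromycin selection before clones were picked, and the labels name no further treatment. The edits lie near the start codon and, by the study's account, at least one allele in every clone codes for a protein that lacks a short N-terminal stretch. The clones are therefore knockdown mutants with residual protein and not complete knockouts, although the labels call them KO. By the study's western blots, most of the CFIm25 protein was lost in every clone, and the RNA values given below do not measure protein.

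At the end of a typical gene, CPSF binds the AAUAAA hexamer of the nascent transcript and cuts it, CstF binds the U- or GU-rich stretch behind the cut, and CFII links cutting to termination. CFIm binds UGUA motifs upstream of the hexamer. A poly(A) polymerase then adds the tail, poly(A)-binding proteins coat it, and the exonuclease XRN2 degrades the downstream RNA that polymerase is still making. Replication-dependent histone transcripts end in a stem-loop without a poly(A) tail and use SLBP and U7 snRNP. Integrator is a separate complex that cuts small nuclear RNAs and other short transcripts of RNA polymerase II.

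The 3 guide RNA targets are shown because they define the mutants. All of them matched GRCh37 chromosome 16 inside the coding part of exon 1 of NUDT21, and 1 matched the opposite strand to the other two. Each is written 5′ to 3′ with the adjacent PAM in capitals.
guide 1, chr16:56485077-56485096, plus strand: cagccggtctgcgagcgattGGG
guide 2, chr16:56485053-56485072, plus strand: ccgaactgagtgaccccccgGGG
guide 3, chr16:56485079-56485098, minus strand: ccaatcgctcgcagaccggcTGG

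To show what the machinery reads on its own transcripts, the ends of the annotated member transcripts were searched on the sense strand for the hexamers AATAAA and ATTAAA in the last 50 bases and for TGTA, the DNA form of the CFIm motif, in the last 100 bases. AATAAA was present in 25 of 38 members, or 65.8%, and in 64.3% of 19483 protein-coding genes. TGTA was present in 16 of 38 members, or 42.1%, and in 52.3% of all protein-coding genes. These are annotated ends in GRCh37 and not cleavage sites measured in these cells. The sites of both CFII genes, which had the lowest fitted values in the comparison of groups, are written with the hexamer in capitals.
PCF11, chr11:82896803-82896832, plus strand: attcatacatgtAATAAAtagaatgatgaa
CLP1, chr11:57429302-57429331, plus strand: aaaaatcattttAATAAAtatttttgccat

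CLP1 had no TGTA in the last 100 bases. The only TGTA of PCF11 in this window shares its last base with the hexamer shown above. For contrast, 3 members with a TGTA upstream of the hexamer are written with that motif in capitals.
PAPOLA, chr14:97033393-97033422, plus strand: tgtaaacagatgaTGTAtttctccattgaa
CSTF3, chr11:33106164-33106193, minus strand: atgaaatccgtttTGTAgtttcaaatttta
XRN2, chr20:21370386-21370415, plus strand: aacatttcattaaTGTActtgtcttacaga

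The median log2 fold change was -0.026 over the 16 members with a TGTA anywhere in the last 100 bases, with a range of -0.37 to 0.20 and 11 below 0. These include PCF11 and members without either hexamer, so the split is not by a TGTA upstream of the hexamer. The median was -0.021 over the 22 without a TGTA, with a range of -0.29 to 0.18 and 15 below 0, and the difference was not tested.

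The deposited values are gene-level read counts scaled by the size factors of the samples, here called normalized counts. Recovered totals ranged from 18754108 to 23372391 reads, and the member with the fewest reads in any sample, INTS12, still had 175. The edited gene NUDT21 had normalized counts of 6503 and 6398 in mock control and 4035, 3281 and 3400.2 in CFIm25-m, which gave a log2 fold change of -0.86 ± 0.11 (SE, limma-trend adjusted p = 0.00431). Without mock control replicate 1 or 2 the adjusted p of NUDT21 was 0.0618 or 0.0557. All 8 pluripotency markers were expressed and none passed the test, with a summed level of 183614 to 186970 in mock control and 160422 to 167131 in the mutants, while the summed mesoderm and endoderm markers reached at most 154 normalized counts in any sample. Of the ectoderm markers, DCX was lower in CFIm25-m by a log2 fold change of -1.14 (limma-trend adjusted p = 0.0064). The 6 ectoderm markers, mostly NES, summed to 13572 to 14278 in mock control and 11140 to 14281 in the mutants. Of the 6 fibroblast markers, COL1A1, COL1A2 and THY1 were expressed and none was called, with a summed level of 15625 to 15984 in mock control and 12779 to 15707 in the mutants, while DCN and LUM had at most 2.31 normalized counts in any sample. CFIm25-m replicate 3 stood apart. In this clone, antisense, sense-intronic and unclassified (TEC) transcripts exceeded protein-coding genes by a median of 0.49 log2 units relative to mock control, against 0.16 and 0.06 in the other clones. The part of this clone's shift in the members' values was not tested. For some of the results that it moved, but not for all, the value without it is also given. In bulk RNA, fewer cells that express a gene and less RNA per cell cannot be told apart.

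None of the 38 members passed the test between CFIm25-m and mock control. Fold changes are on the scale of log2(normalized count + 1), a member was called at an adjusted p under 0.05 over 19232 tested genes, and all 38 members were tested. Limma-trend, edgeR's quasi-likelihood test and DESeq2 each called 0 members, against 1.88%, 1.81% and 3.27% of all tested genes. At an unadjusted p under 0.05, limma-trend counted 3 members, or 7.89%, against 15.1% of all tested genes. The same count was 3 with edgeR and 2 with DESeq2, against 14.9% and 11.9% of all tested genes. The 3 genes with limma-trend were PCF11, WDR33 and CLP1, and all of them had lower levels in CFIm25-m.

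The limma-trend intervals rest on 2 mock controls and 3 clones, and they describe how large a difference this fit left room for. The 95% interval of the fold change lay within 2-fold in either direction for 38 of 38 members, against 72.9% of all tested genes. It lay within 1.5-fold for 37 of 38 members, against 50.5% of all tested genes, and the exception was PCF11. With limma without trend, 34 members lay within 1.5-fold. The count within 1.5-fold was 29 or 30 when 1 mock control sample was left out and 38 without CFIm25-m replicate 3, while the count within 2-fold remained 38 in each. The members are well counted, which narrows their intervals: their median SE was 0.11, against 0.12 over the 12330 tested genes with a mean of at least 100 normalized counts.

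**Figure D1:**
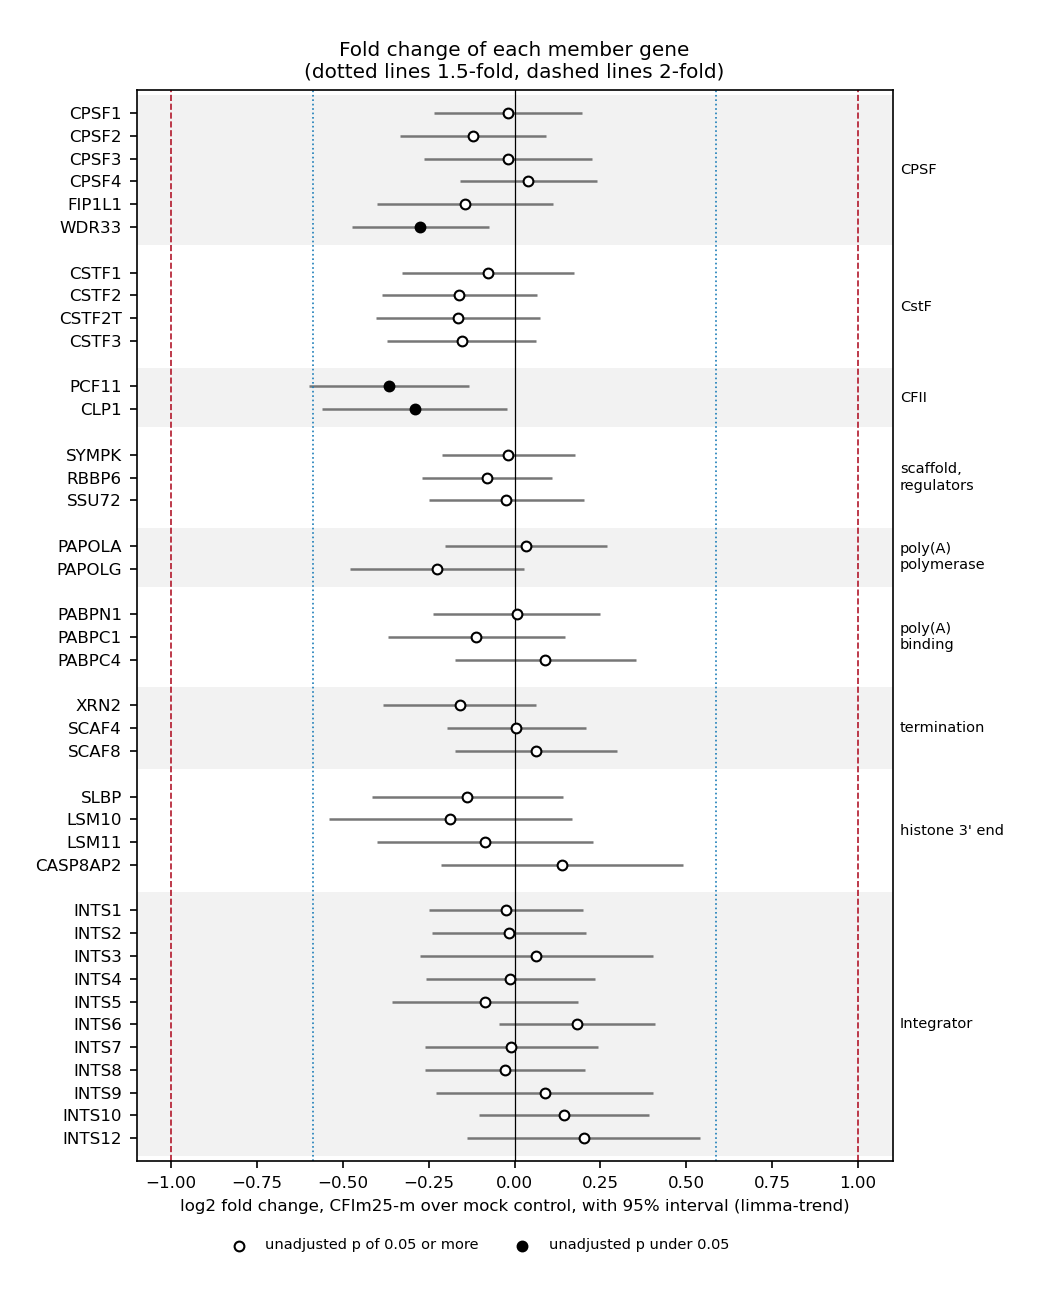
Log2 fold change of CFIm25-m over mock control for each of the 38 members (x axis, limma-trend) with its 95% interval, grouped by role. Filled points have an unadjusted p under 0.05 (PCF11, WDR33 and CLP1), and no interval reaches the dashed 2-fold lines.

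The median log2 fold change was -0.024 over the members, -0.011 over all tested genes and -0.042 over those with a mean of at least 100 normalized counts. The median absolute log2 fold change was 0.086 over the members, 0.17 over all tested genes and 0.13 over those with a mean of at least 100. Of the members, 26 had a fitted value below 0, a number that was 20 with TMM scaling and 17 with scaling by total reads, so no common direction is given for the list.

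**Figure D2:**
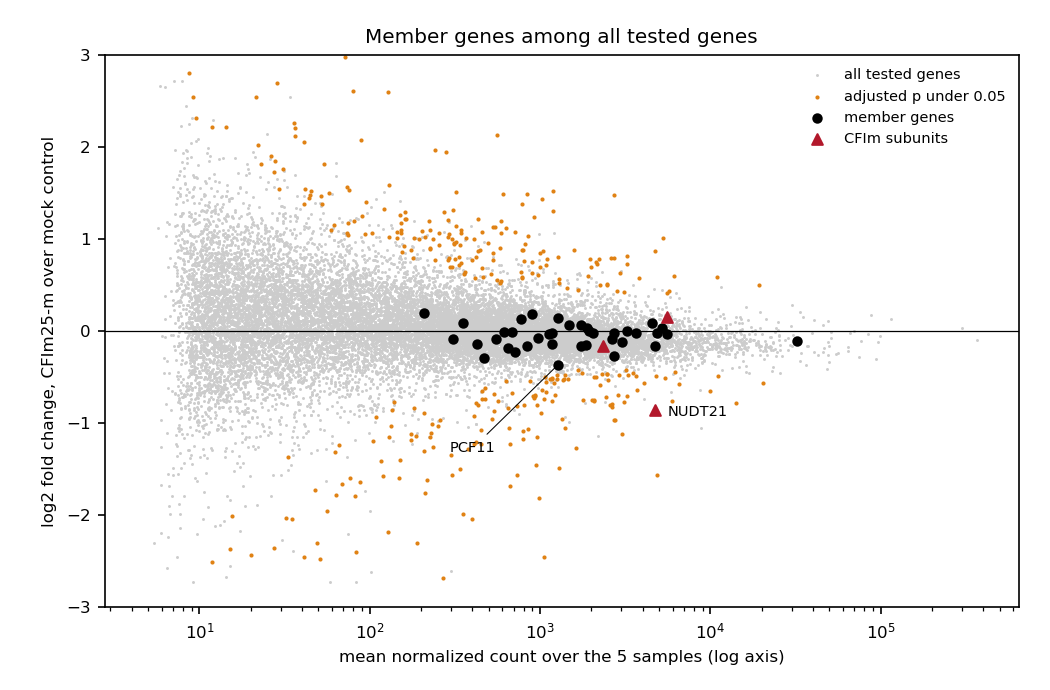
Log2 fold change (y axis) against the mean normalized count of the 5 samples (x axis, log axis) for the tested genes in grey, called genes in orange, members in black and CFIm subunits as red triangles. The members lie between -0.37 and 0.20 at mean counts where other genes were called, and 33 tested genes lie beyond the y axis.

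The normalized counts of 11 members did not overlap between the groups, or 28.9%, against 36.8% of all tested genes. In CFIm25-m, 10 of them were lower, namely FIP1L1, WDR33, CSTF2, CSTF3, PCF11, CLP1, RBBP6, PAPOLG, PABPC1 and XRN2, and INTS6 was higher. The share of each direction over all tested genes was not computed, so nothing is read from this split. Without CFIm25-m replicate 3, the number was 18 of 38 members, against 51.0% of all tested genes. Overlap was judged with the deposited scaling only, here and for the counts of single genes below. Another scaling can change it where samples of the 2 groups lie close.

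**Figure D3:**
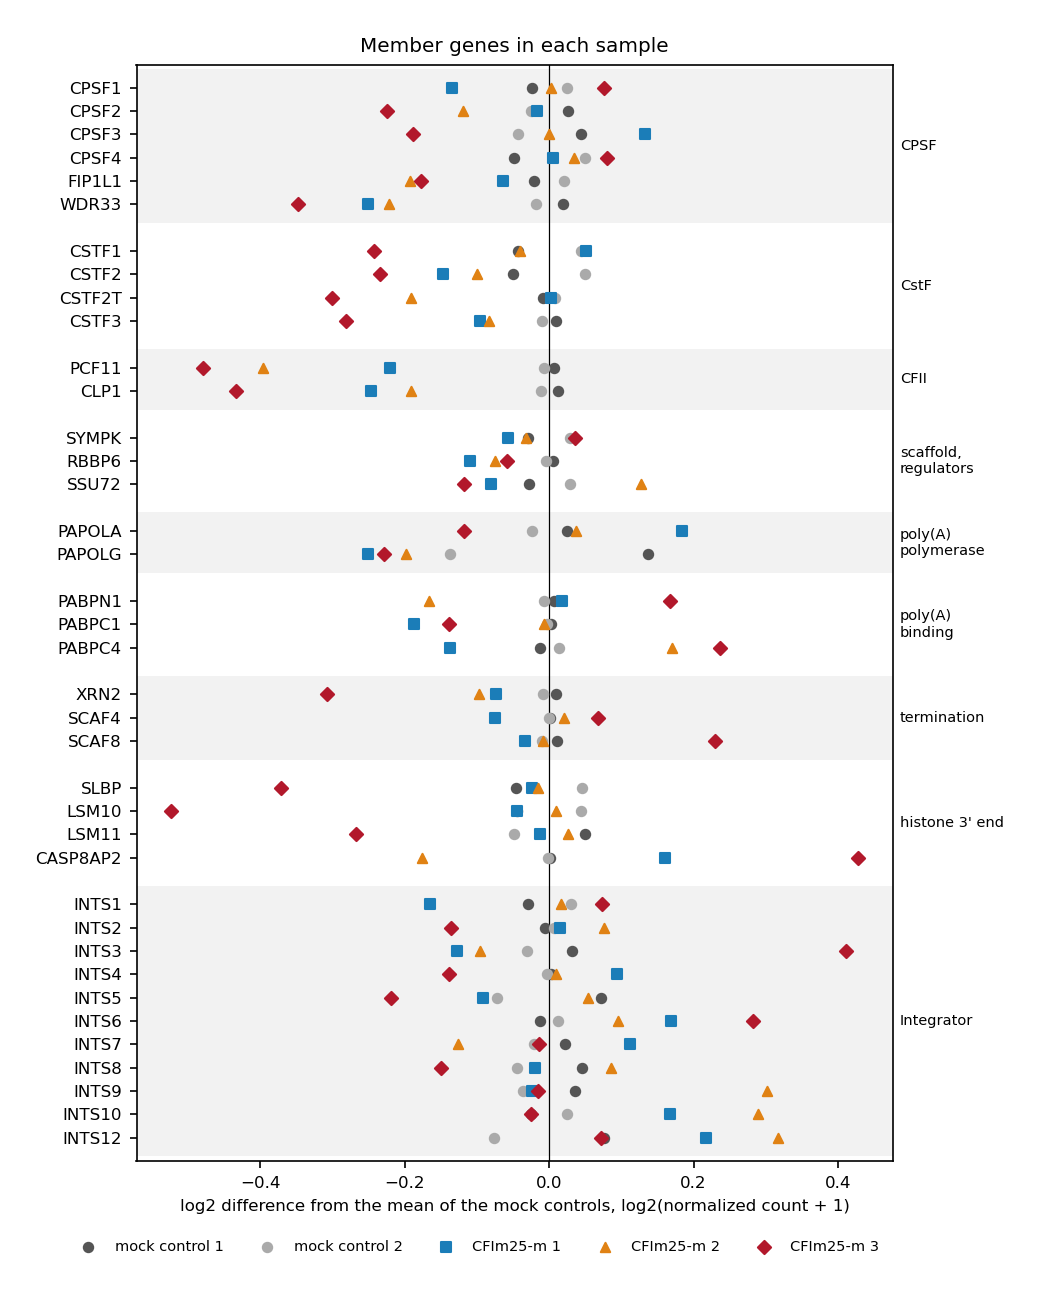
Log2 difference of every sample from the mean of the mock controls (x axis, log2(normalized count + 1)) for each member, grouped by role. The mock controls differ by a median of 0.048 log2 units over the members and by at most 0.27, for PAPOLG. CFIm25-m replicate 3 (diamonds) is the lowest or highest clone for 33 of the 38 members.

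CFII showed the lowest fitted values. PCF11, the scaffold of CFII that binds the polymerase tail and promotes termination, had normalized counts of 1478 and 1463 in mock control and 1262, 1117 and 1054 in CFIm25-m. Every clone lay below both mock controls, and replicate 3 was the lowest. The log2 fold change was -0.37 ± 0.10 (SE), with a 95% interval of -0.60 to -0.13, and it did not pass the threshold (adjusted p = 0.131 with limma-trend, 0.135 with edgeR and 0.101 with DESeq2). PCF11 lies on chromosome 11 from 83156988 to 83187451 on the plus strand in hg38, as deposited. Without replicate 3 its log2 fold change was -0.31.

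CLP1, an RNA kinase and the partner of PCF11, had normalized counts of 527 and 518 in mock control and 440.0, 457 and 387 in CFIm25-m. The groups did not overlap and replicate 3 was again the lowest. The log2 fold change was -0.29 ± 0.12 (SE, limma-trend adjusted p = 0.293). CLP1 shares its deposited interval on chromosome 11, 57648992 to 57661868, with AP000662.1 on the same strand and with YPEL4 on the opposite strand. AP000662.1 passed the test in the other direction, from a mean of 309 to 703 normalized counts, with a log2 fold change of 1.13 (limma-trend adjusted p = 0.04). YPEL4 went from 487 to 882 (limma-trend adjusted p = 0.18). Where CLP1 and AP000662.1 share exonic bases, no strand setting would separate their reads. For YPEL4 it could, but the strand setting of the counting is not given in the sources used here. The value of CLP1 is therefore uncertain.

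Among the 6 CPSF genes, only WDR33 had an unadjusted p under 0.05. WDR33, the subunit that contacts the AAUAAA hexamer together with CPSF4, had normalized counts of 3085 and 3007 in mock control and 2559, 2613 and 2393 in CFIm25-m. The 3 clones lay close together and below both mock controls. The log2 fold change was -0.27 ± 0.09 (SE), with an adjusted p of 0.183 with limma-trend, 0.188 with edgeR and 0.174 with DESeq2. WDR33 lies on chromosome 2 from 127701022 to 127811187 on the minus strand in hg38, and the only gene listed inside it, RNY4P7, had a mean of at most 1.32 normalized counts in either group.

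CPSF1, the largest CPSF subunit, had the highest level of the group per kb of gene length. Its normalized counts were 4819 and 4984 in mock control and 4466, 4908 and 5166 in CFIm25-m, so the clones lay on both sides of the mock controls. FIP1L1, which recruits poly(A) polymerase, had the lowest level per kb, with normalized counts of 447 and 460.3 in mock control and 434, 397 and 401 in CFIm25-m. The groups of FIP1L1 did not overlap, but its log2 fold change of -0.14 ± 0.12 (SE) did not pass the test (limma-trend adjusted p = 0.584). CPSF2, CPSF3, the endonuclease, and CPSF4 had log2 fold changes of -0.12, -0.02 and 0.04, and that of CPSF2 was -0.07 without CFIm25-m replicate 3.

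All 4 CstF genes had fitted values slightly below 0, between -0.16 and -0.08, and none passed the test. Without CFIm25-m replicate 3 the number below 0 was 3, and the values lay between -0.12 and 0.01. CSTF2, the subunit that binds the downstream GU-rich element, had normalized counts of 859 and 919.7 in mock control and 803, 829 and 755 in CFIm25-m. Its groups did not overlap, and its log2 fold change was -0.16 ± 0.10 (SE, limma-trend adjusted p = 0.49). Its autosomal paralogue CSTF2T, the highest of the group per kb, had normalized counts of 1835 and 1856 in mock control and 1848, 1616 and 1498 in CFIm25-m, with replicate 1 between the mock controls. CSTF1, the lowest per kb, had normalized counts of 972 and 1033 in mock control and 1037, 974 and 846 in CFIm25-m, and its groups overlapped.

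CPSF, CstF and CFII make up the core that recognizes and cuts the poly(A) site, and 11 of their 12 genes had fitted values below 0, against 51.8% of all tested genes. That number was 9 with TMM scaling, 9 with scaling by total reads and 9 without CFIm25-m replicate 3. The median log2 fold change of the 12 genes was -0.15, against -0.04 over the tested genes with a mean of at least 100 normalized counts. The share below 0 among those well-counted genes was not computed. The median of the 12 genes was -0.08 with scaling by total reads and -0.09 without that clone. Genes are not independent replicates, and the median was not tested.

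The genes around this core differed little between groups. RBBP6, a ubiquitin ligase that activates cleavage, had normalized counts of 2760.5 and 2743 in mock control and 2549.7, 2613 and 2643 in CFIm25-m. The clones all lay below the mock controls, although the log2 fold change was only -0.081 ± 0.085 (SE, limma-trend adjusted p = 0.686). SSU72, a phosphatase of the polymerase tail and the highest of the group per kb, had normalized counts of 2672 and 2778 in mock control and 2577, 2976 and 2511 in CFIm25-m. SYMPK, the scaffold protein symplekin, had a log2 fold change of -0.02 with a 95% interval of -0.21 to 0.18.

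The 2 poly(A) polymerase genes had fitted values on opposite sides of 0. PAPOLG had normalized counts of 855 and 707 in mock control and 653, 678 and 664 in CFIm25-m. The clones agreed more closely with each other than the mock controls did, and the groups did not overlap. The log2 fold change was -0.23 ± 0.11 (SE, limma-trend adjusted p = 0.387), and it was -0.09 without mock control replicate 1 and -0.36 without replicate 2. PAPOLA, the main polymerase, had a log2 fold change of 0.03 with a 95% interval of -0.20 to 0.27.

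PABPC1, the main cytoplasmic poly(A)-binding protein, was the most highly expressed member per kb. Its normalized counts were 33641 and 33493 in mock control and 29470.2, 33401 and 30497 in CFIm25-m. Replicate 2 lay just under both mock controls, so the groups did not overlap with the deposited scaling. A gap this small depends on the scaling. The log2 fold change of -0.11 ± 0.12 (SE) did not pass the test (limma-trend adjusted p = 0.683). The inducible paralogue PABPC4, the lowest of the group per kb, had normalized counts of 4327 and 4406 in mock control and 3969.9, 4913 and 5147 in CFIm25-m, so the clones lay on both sides. The nuclear protein PABPN1 had a log2 fold change of 0.01 with a 95% interval of -0.24 to 0.25. The table also lists 6 PABPC1 pseudogenes, whose summed normalized count averaged 21.7 in mock control and 22.6 in CFIm25-m, and reads shared with them could be split. Of the other members with listed pseudogenes, that of CPSF1 averaged 33.2 in mock control and 100.3 in CFIm25-m, and the 2 of INTS4 together averaged 21.1 and 42.4, against mock means of 4901 for CPSF1 and 685 for INTS4 themselves.

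Among the termination genes, XRN2, the exonuclease that follows cleavage, had the highest level per kb. Its normalized counts were 5041 and 4981 in mock control and 4759.7, 4684 and 4048 in CFIm25-m. The groups did not overlap, and replicate 3 was well below the other clones. The log2 fold change was -0.16 ± 0.10 (SE, limma-trend adjusted p = 0.486), and it was -0.09 without that clone. SCAF8, the lowest per kb, had normalized counts of 1450.0 and 1429 in mock control and 1406, 1431 and 1688 in CFIm25-m. SCAF4 and SCAF8 are antiterminators that prevent early poly(A) site use, and their log2 fold changes were 0.00 and 0.06, or -0.03 and -0.02 without CFIm25-m replicate 3.

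The histone 3′ end factors had the widest spread between clones of the 9 role groups, with a median log2 range of 0.44. LSM10, a protein of the U7 snRNP, had normalized counts of 669.7 and 712 in mock control and 669.5, 695 and 480.0 in CFIm25-m. Replicate 3 alone lay far below, and the log2 fold change of -0.19 ± 0.16 (SE, limma-trend adjusted p = 0.609) was -0.02 without it. SLBP, the stem-loop-binding protein and the highest of the group per kb, had normalized counts of 1195 and 1274 in mock control and 1214, 1221 and 953 in CFIm25-m. LSM11, the lowest per kb, had normalized counts of 328 and 307 in mock control and 315, 323 and 264 in CFIm25-m. In each of these genes replicate 3 was the lowest sample and the other clones lay within 0.05 log2 units of the mock mean. CASP8AP2, also called FLASH, went the other way, with normalized counts of 724 and 723 in mock control and 809, 640.1 and 973 in CFIm25-m, where replicate 3 was the highest. Its 95% interval was -0.21 to 0.49, and its log2 fold change of 0.14 was -0.01 without that clone.

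The 11 Integrator subunits had log2 fold changes between -0.09 and 0.20, with a median of -0.01. Fitted values were below 0 for 6 subunits, for 3 with TMM scaling and for 1 with scaling by total reads, so no direction is given for the complex. INTS6, which recruits the PP2A phosphatase to the complex, had the smallest p-value of the group and was also the lowest per kb. Its normalized counts were 822 and 836 in mock control and 932, 885 and 1008 in CFIm25-m. All clones lay above the mock controls, and the log2 fold change was 0.18 ± 0.10 (SE, limma-trend adjusted p = 0.432). INTS1, the largest subunit and the highest per kb, had normalized counts of 5502 and 5733 in mock control and 5009, 5679 and 5911 in CFIm25-m, on both sides of the mock controls.

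The catalytic module of Integrator is made of INTS4, INTS9 and INTS11. INTS4 had a log2 fold change of -0.01 with a 95% interval of -0.26 to 0.23, and INTS9 had 0.09 with -0.23 to 0.40. The nuclease INTS11, which was not among the members but was in the list of related genes, had a log2 fold change of 0.11 (limma-trend adjusted p = 0.66). INTS12 had the fewest reads, with normalized counts of 202 and 181 in mock control and 222.5, 239 and 201 in CFIm25-m, and the highest fitted value of the group, 0.20 ± 0.15 (SE, limma-trend adjusted p = 0.563). INTS3, which also forms the SOSS complex of DNA repair, was high in 1 clone only: its normalized counts were 1721 and 1648 in mock control and 1541, 1576 and 2240.2 in CFIm25-m. Its log2 fold change was 0.06 with all clones and -0.11 without replicate 3. INTS2, INTS5, INTS7, INTS8 and INTS10 had log2 fold changes of -0.02, -0.09, -0.01, -0.03 and 0.14. Without replicate 3, INTS5 was at -0.02 and INTS10 at 0.23.

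CFIm25-m replicate 3 was the lowest or highest clone for 33 of 38 members, or 86.8%, against 77.1% of all tested genes. It was the lowest for 21 members, against 41.3% of all tested genes, and the highest for 12, against 35.8%. The median log2 difference of the members from the mock mean was -0.04 in replicate 1, -0.01 in replicate 2 and -0.14 in replicate 3, while that of all tested genes in replicate 3 was -0.02.

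Levels per kb of gene length spanned 192-fold over the members, from 35.1 for INTS6 to 6755 for PABPC1 as the mean of the 5 samples. Per kb, 35 of 38 members lay above the median of tested genes, and their median was at the 78.6th percentile. Within CPSF, the order was CPSF1, CPSF3, CPSF4, CPSF2, WDR33 and FIP1L1, with means of 802, 544, 445, 222, 187 and 75.9 per kb. In this order only CPSF2 and WDR33 had overlapping ranges over the samples. CSTF2T, CSTF3 and CSTF2 could not be ordered, with means of 422, 414 and 381 per kb and overlapping ranges between neighbours, and CSTF1 lay below them at 203. Among the Integrator subunits, INTS1 stood alone at 614 per kb. The next 7, from INTS10 at 187 to INTS4 at 112, each overlapped their neighbour, and INTS9, INTS12 and INTS6 followed at 71.6, 53.6 and 35.1 without overlap. CLP1 and PCF11 had means of 167 and 128 per kb with overlapping ranges. Gene length is that of the whole deposited gene model, 25509 bases for INTS6, and which part of a model these cells use was not measured.

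**Figure D4:**
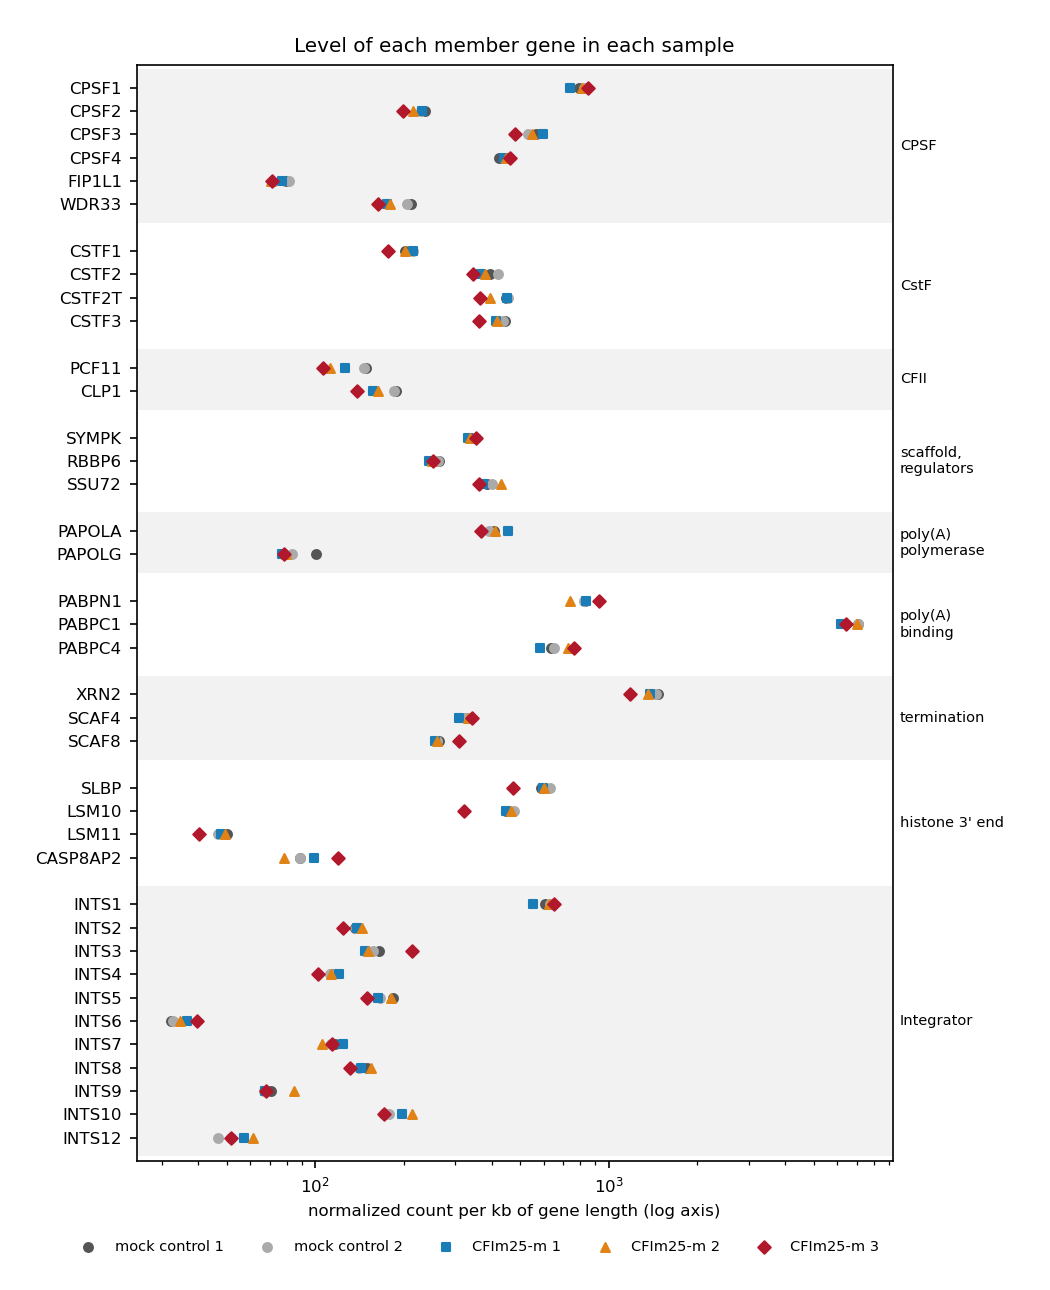
Normalized count per kb of gene length (x axis, log axis) of each member in each of the 5 samples, grouped by role. PABPC1 lies apart at 6755 on average, and samples of 1 gene lie close together compared with the 192-fold span over the members. Within role groups, 12 of 29 neighbouring pairs have overlapping ranges.

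Ratios within paralogue pairs do not depend on the size factors. The ratio per kb of CSTF2 to CSTF2T was 0.878 and 0.93 in mock control and 0.815, 0.963 and 0.946 in CFIm25-m, with overlapping groups. The ratio of PAPOLA to PAPOLG was 4.03 and 4.71 in mock control and 5.89, 5.13 and 4.71 in CFIm25-m, and the lowest clone lay just below mock control replicate 2. The ratio of PABPC1 to PABPC4 was 11.1 and 10.8 in mock control and 10.6, 9.70 and 8.46 in CFIm25-m, the only pair whose groups did not overlap. For that pair the exact two-sided permutation test over samples gave p = 0.2, the smallest that the 10 arrangements of 2 and 3 samples can give, and 1 after Benjamini-Hochberg adjustment over the 5 pairs tested. The difference of the log2 ratio was -0.20. For SCAF4 to SCAF8 and INTS6 to INTS6L the log2 ratio differed by -0.06 and 0.03, with exact p = 0.6 and 1.

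**Figure D5:**
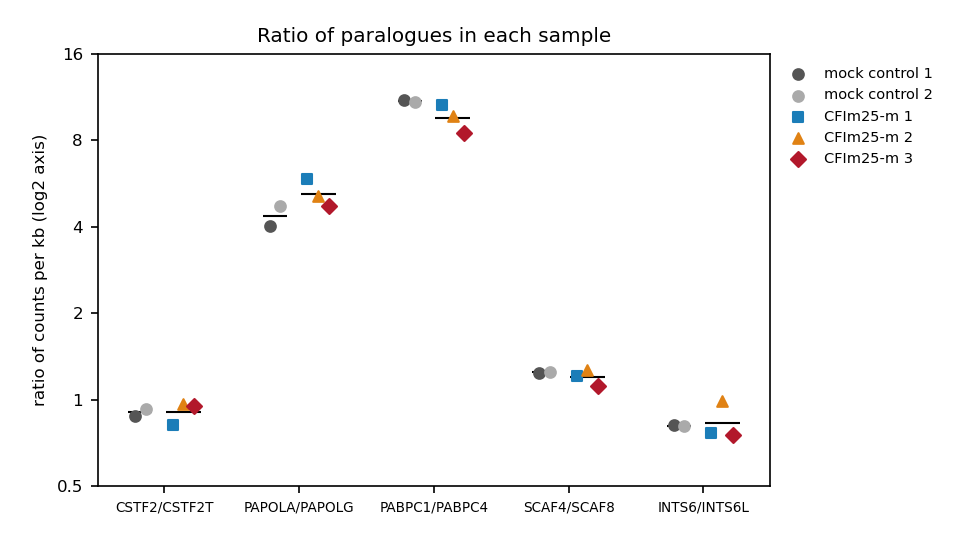
Ratio of normalized counts per kb (y axis, log2 axis) for 5 paralogue pairs in each sample, with a bar at the mean of the log2 ratios of each group. PABPC1/PABPC4 is 11.1 and 10.8 in mock control and 8.46 to 10.6 in the mutants, and the groups of the other pairs overlap.

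CPSF6 and CPSF7 encode the large CFIm subunits that pair with CFIm25, and neither passed the test. CPSF6 had normalized counts of 5204 and 5183 in mock control and 5678, 5748 and 5968 in CFIm25-m, which gave a log2 fold change of 0.16 (limma-trend adjusted p = 0.425). CPSF7 had normalized counts of 2479 and 2539 in mock control and 2173, 2175 and 2368 in CFIm25-m, which gave a log2 fold change of -0.17 (limma-trend adjusted p = 0.421). Their groups did not overlap, in opposite directions.

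The rest of the pathway was described with 58 related genes, of which 55 were tested. They comprise further Integrator subunits and partners, phosphatase and termination factors, histone 3′ end factors, and enzymes that lengthen, bind or remove the poly(A) tail. Limma-trend, edgeR and DESeq2 called 0 of them, against 1.88%, 1.81% and 3.27% of all tested genes. An unadjusted p under 0.05 was found for 2, 2 and 1 of them, against 15.1%, 14.9% and 11.9% of all tested genes. The median log2 fold change was -0.04, and it was also -0.04 over the tested genes with a mean of at least 100 normalized counts. Of the 55 related genes, 37, or 67.3%, were below 0, against 51.8% of all tested genes. This count is given for the deposited scaling only, and many of the values lie near 0. No direction is therefore given for this list. PABPC1L, a relative of PABPC1 known from oocytes, had the smallest p-value, with normalized counts of 829 and 800.0 in mock control and 1010.3, 955 and 1558 in CFIm25-m. Replicate 3 was the highest, and the log2 fold change was 0.49 ± 0.18 (SE, limma-trend adjusted p = 0.243) and 0.27 without that clone. CPEB2, which binds a cytoplasmic polyadenylation element, had normalized counts of 51.9 and 69.5 in mock control and 81.2, 99.9 and 84.6 in CFIm25-m (log2 fold change 0.55, adjusted p = 0.296, limma-trend). Without mock control replicate 1 or 2 its value was 0.34 or 0.76. None of the 13 related 3′ end genes, 9 related Integrator genes or 7 related histone factors had an unadjusted p under 0.05.

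Overlapping annotation limits some of these values. By the deposited coordinates, 25 of 38 members overlapped another listed gene and 21 overlapped one on the opposite strand. Of those overlapping genes, only AP000662.1 at CLP1 passed the test. INTS3 overlapped SLC27A3 on the same strand, which had means of 675 and 499 normalized counts (log2 fold change -0.44, adjusted p = 0.13, limma-trend). INTS12 overlapped GSTCD on the opposite strand, which at 636 and 569 normalized counts exceeded INTS12 itself. Where 2 such genes share exonic bases, a change in one can enter the count of the other, and this was not tested.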

How the data were processed

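Poly(A+) RNA-seq of 2 mock control and 3 CFIm25-m samples was analysed, with groups from the labels. The authors deposited gene-level read counts scaled by a size factor of the sample (a normalized signal), with group means. The log2 fold change and both p-value columns that the authors deposited hold their own comparison and were not used. The submitters' processing notes name HISAT2, featureCounts of Subread, DESeq2 and hg38. Versions, annotation release and strand setting are not given in the sources used here. Within a tolerance of 0.001 reads, 100% of the values were whole reads. A floor of 3 reads was chosen as a setting and was not estimated from the data.

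A gene was tested if 2 or more samples reached a normalized count of 10. The test was limma-trend (limma 3.58.1, R 4.3.3) on log2(value + 1), with Benjamini-Hochberg adjustment and a threshold of 0.05. Because the values are normalized, edgeR 4.0.16 and DESeq2 1.42.0 on recovered reads were alternatives, beside other scalings, filters, pseudocounts, a variance model without trend, a replicate block and leaving out each sample. The tests were checked on simulated counts. There the share of false calls exceeded the 0.05 threshold with limma-trend, edgeR and DESeq2. No source says that samples of a group came from separate cultures beyond the clones. The p-values therefore set a group difference against a variance estimated from the spread between these samples.

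Every member was described by role. Values in every sample were given for the smallest p-value of each group, for the highest and lowest level per kb in groups of 3 or more, and for paralogue pairs as ratios. Sample values of CLP1, CASP8AP2, INTS3, INTS12, PABPC1L and CPEB2 were added after their values were seen. Members and lists were chosen with earlier results of these data known. Annotated 3′ ends came from GENCODE v44lift37 on GRCh37, whose coordinates were not mixed with the hg38 positions as deposited. The 3′ end site of 1 member is not reported here. The remaining assays of the study were not analysed here.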

Additional observations from a re-analysis of the deposited data

How the results depend on the processing

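Values in this paragraph are log2 fold changes of CFIm25-m over mock control unless named otherwise. The count of members past the threshold was 0 under every alternative except the replicate block, where it was 2, and the count of related genes was 0 except under the block, where it was 1. No value of a member moved past the threshold under another scaling, filter, pseudocount or test, or when a sample was left out. The median over the members was 0.045 with scaling by total reads, which moved the median of all tested genes to 0.057. NUDT21 was -0.86 with limma without trend, no longer past the threshold (adjusted p = 0.106), and it ranged from -0.95 to -0.80 when a sample was left out, with the call lost without either mock control. Of the members, 19 kept their sign under all 15 alternatives, 15 of them below 0. The other 19 lay at most 0.14 from 0 and changed sign under at least 1 alternative. The cause was not tested beyond the small size of these values.

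With TMM scaling, CPSF1 was 0.00066, CPSF3 0.00042, SYMPK 0.0015, INTS2 0.0037, INTS4 0.0069 and INTS7 0.0095. With edgeR, CPSF1 was 0.0042, CPSF3 0.0051, SYMPK 0.0026, INTS2 0.0061, INTS4 0.0096 and INTS7 0.013. With DESeq2, INTS4 was 0.00055 and INTS7 was 0.0036. With scaling by total reads, CPSF1 was 0.050, CPSF3 0.050, SYMPK 0.051, SSU72 0.045, INTS1 0.044, INTS2 0.053, INTS4 0.057, INTS7 0.059 and INTS8 0.041.

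The replicate numbers come from the labels, which name no pairing. Deviations of same-numbered samples from their group means had correlations of 0.0072 and 0.018. With 2 mock controls the deviations mirror each other, so these values cannot show whether same-numbered samples shared a batch or culture. With the replicate block, which takes nothing from CFIm25-m replicate 3 for the group difference, 2107 of 19232 genes passed, or 10.96%. PCF11 (-0.31, adjusted p = 0.00719), WDR33 (-0.24, adjusted p = 0.0181) and PABPC1L (0.27, adjusted p = 0.0295) were past the threshold there. Over all alternatives the adjusted p ranged from 0.00719 to 0.766 for PCF11, from 0.0181 to 0.915 for WDR33 and from 0.0295 to 0.785 for PABPC1L. With the block, the sign changed for CPSF3 (0.066), CSTF1 (0.0051), SSU72 (0.024), PABPN1 (-0.074), SCAF4 (-0.027), SCAF8 (-0.021), LSM11 (0.0064), CASP8AP2 (-0.0076), INTS2 (0.045), INTS3 (-0.11), INTS4 (0.051) and INTS8 (0.033).

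When each sample was left out in turn, the sign changed for CPSF1 (-0.066 to 0.039), CPSF3 (-0.094 to 0.066), CPSF4 (-0.0095 to 0.089), CSTF1 (-0.14 to 0.0051), SYMPK (-0.047 to 0.012), SSU72 (-0.099 to 0.024), PAPOLA (-0.040 to 0.11), PABPN1 (-0.074 to 0.093), SCAF4 (-0.027 to 0.044), SCAF8 (-0.021 to 0.11), LSM11 (-0.14 to 0.0064), CASP8AP2 (-0.0076 to 0.29), INTS1 (-0.075 to 0.045), INTS2 (-0.061 to 0.045), INTS3 (-0.11 to 0.16), INTS4 (-0.065 to 0.051), INTS7 (-0.070 to 0.049), INTS8 (-0.085 to 0.033) and INTS9 (-0.020 to 0.14). A lone mock control is assumed to vary like the clones. The count of all genes past the threshold was 361, but 46 without trend, 66 and 71 without a mock control, 143 and 201 without CFIm25-m replicate 1 or 2, 1044 without replicate 3 and 629 with DESeq2. The number of members without overlap between groups, 11, was 18 without CFIm25-m replicate 3, an alternative chosen after seeing the data.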
